A study of Mus musculus with 4 samples.

Results

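The miRs named miR-297, miR-466, miR-467 and miR-669 with their letter variants are made in the mouse from a large cluster of hairpins inside an intron of Sfmbt2, a Polycomb group gene on chromosome 2. Members were taken from the deposited RPM table by name, as every row in which a name, or any part of a joint name, carries one of these 4 numbers. The rule found 14 of 568 rows. They hold 1 row of miR-297, 5 of miR-466, 4 of miR-467 and 4 of miR-669, and 4 of the 14 have joint names because the mature miRs were not separated. The values are RPM, which the methods define relative to mapped reads, measured in proangiogenic cells (PACs) cultured from bone marrow.

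There were 4 libraries, aging, SMK, HC and CTL, with 1 library per condition and therefore no replicates, SD or p-value. The aging library came from C57Bl/6 mice of 16 months (pool of 2). The SMK library came from C57Bl/6 mice of 2 months exposed to cigarette smoke before surgery (pool of 4). The HC library came from mice of 2 months with the APOE-/- genotype, which in the study's methods were also fed a Western-type diet (pool of 4), so that genotype and diet cannot be told apart. The CTL library came from healthy C57Bl/6 mice of 2 months (pool of 6). The pool sizes are those of the labels, and for aging the study's methods give a larger pool than its label does. All mice, CTL included, had hindlimb ischemia by removal of the femoral artery, and PACs were grown for 4 days on fibronectin. The denominator of the RPM, read from the steps of the values, was 1568958 counts in aging, 1670010 in SMK, 1038986 in HC and 2541732 in CTL. The 568 listed miRs alone sum to between 989578 and 996242 RPM, so this denominator is close to the miR counts and leaves out most other RNA. It is also smaller in each library than the number of miRNA reads in the sequencing summary supplied with the paper, for which no reason is given in the sources used here. A fold is the RPM of a cardiovascular risk factor (CRF) library over that of CTL. Ranges in parentheses behind folds are exact 95% intervals for the ratio of the 2 counts behind them. They take in counting error alone, and differences between mice, cultures and library preparations lie outside them.

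Sfmbt2 is imprinted in the mouse and is read from the paternal allele in extraembryonic tissue, where the protein is needed for the trophoblast. Its cluster arose by repeated duplication in rodents and has no human counterpart, and its miRs are known mainly from mouse embryonic stem cells and placenta. As in other hairpins, each precursor can give a miR from its 5p arm and another from its 3p arm, and the 2 arms pair with each other.

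The reference (RefSeq, GRCm38.p6) lists 82 hairpins with these 4 numbers. Of these, 72 lie within Sfmbt2 (chr2:10370440-10595253), from position 10466663 to 10518279, a span of 51617 bases. In GENCODE release M21, which lists 71 of the 72, all 71 are on the plus strand as Sfmbt2 is. The span falls between exons 10 and 11 of transcript Sfmbt2-201, in an intron of 62472 bases. The other 10 hairpins are on other chromosomes. The names in the table account for 41 hairpins, 39 of them inside Sfmbt2 and 2 elsewhere. The 2 elsewhere are Mir297-1 on chromosome 7 and Mir466i on chromosome 13 (chr13:17747473-17747593). The table therefore holds 1 row, miR-466i-5p, whose only annotated hairpin is outside Sfmbt2, and 1 row, miR-297a-3p/miR-297b-3p/miR-297c-3p, that can come from both places. Other names of the cluster, among them miR-467a with 10 hairpins, have no row in the table, which does not show whether they are made.

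**Figure D1:**
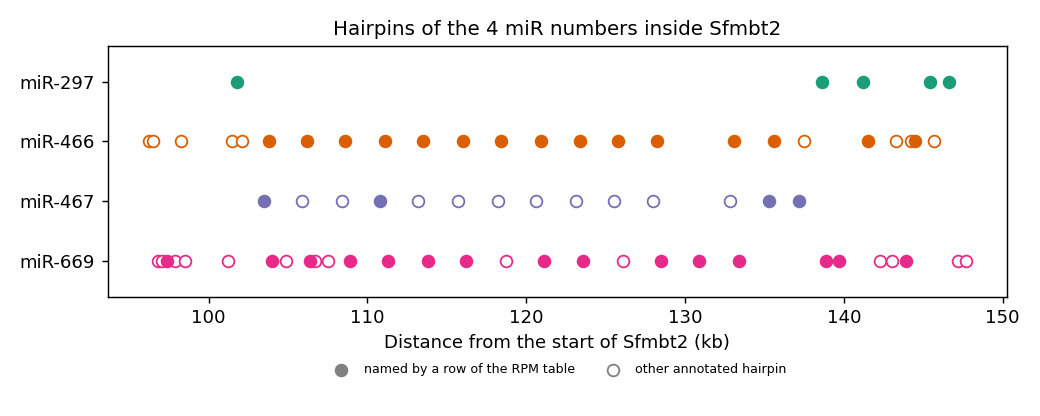
Position of the 72 hairpins inside Sfmbt2 by miR number, as distance in kb from the start of the gene; filled points are hairpins named by a row of the RPM table and open points are other annotated hairpins. The 4 numbers alternate along the cluster, and filled points lie along its whole length.

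A single row can stand for many hairpins. MiR-669a-3p/miR-669o-3p was matched to 12 hairpins and miR-466b-3p/miR-466c-3p/miR-466p-3p also to 12, all inside Sfmbt2, so their levels can be sums over several copies. The letter name miR-466a was not matched to a hairpin, and that row was placed by miR-466e. Of rows with a single name, 9 have a single hairpin inside Sfmbt2. They run from Mir669b, at 97.4 kb from the start of the gene, to Mir466h at 144.5 kb.

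None of the 14 rows (0) was matched to a mature sequence of the RefSeq table. That table holds mature sequences for 8 relatives that carry the same numbers and come from hairpins outside Sfmbt2. Of these, 6 are shown because they make visible what kind of sequence these numbers stand for, with the seed (bases 2 to 8) in capitals. They are miR-466q (chr3:28419988-28420007, plus strand), miR-467f (chr11:69635419-69635439, minus strand), miR-466i-3p (chr13:17747552-17747573, plus strand), miR-466k (chr3:85467396-85467418, plus strand), miR-467h (chr9:115381898-115381919, plus strand) and miR-669n (chr3:115979905-115979924, plus strand). MiR-466i-3p is the other arm of the hairpin that gives the measured miR-466i-5p.
miR-466q: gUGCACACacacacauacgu
miR-467f: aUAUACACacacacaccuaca
miR-466i-3p: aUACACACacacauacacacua
miR-466k: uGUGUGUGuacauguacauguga
miR-467h: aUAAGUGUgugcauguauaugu
miR-669n: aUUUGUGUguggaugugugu

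The first 3 are mostly A and C (14 of 20 bases in miR-466q, 18 of 21 in miR-467f and 19 of 22 in miR-466i-3p). The last 3 are mostly G and U (16 of 23 in miR-466k, 15 of 22 in miR-467h and 18 of 20 in miR-669n). Each of the 8 relatives holds an alternating run of the same 2 bases that is between 7 and 12 bases long. The median of the longest such run over all 1738 mature miRs of the table was 4 bases, and 2.19% of them, these 8 included, had a run of 7 or more. How far the members differ from each other in sequence was not measured, since no member row was matched. Joint names stand for mature miRs that were not separated, and another mapping could share out reads of similar sequences differently. The single rows are for this reason also given as sums.

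The members were rare in all 4 libraries and summed highest in aging. The 14 rows summed to 495.9 RPM in aging (778 counts), 299.4 RPM in SMK (500 counts), 279.1 RPM in HC (290 counts) and 206.2 RPM in CTL (524 counts). That is 0.0496% of this denominator in aging (exact Clopper-Pearson 95% interval 0.0462 to 0.0532), 0.0299% in SMK (0.0274 to 0.0327), 0.0279% in HC (0.0248 to 0.0313) and 0.0206% in CTL (0.0189 to 0.0225). The fold of the sum was 2.41 (2.15 to 2.69) in aging, 1.45 (1.28 to 1.65) in SMK and 1.35 (1.17 to 1.57) in HC.

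Aging stood above each of the other libraries, and SMK and HC were close to each other. The sum in aging was 1.66 times that in SMK (1.48 to 1.86) and 1.78 times that in HC (1.55 to 2.04). Between SMK and HC the ratio was 1.07 (0.926 to 1.24), so their order was not resolved by counting. The library with the highest RPM was aging for 10 of the 14 rows, CTL for 2, SMK for 1 and HC for 1. CTL was the lowest library for 8 of 14 rows. In bulk libraries of this kind, more cells that make a miR and more of it per cell cannot be told apart.

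The sums depend on how the libraries are scaled to each other. Scaling by the median ratio of 123 miRs with at least 100 RPM in all 4 libraries shifted every log2 fold by -0.15 in aging, -0.16 in SMK and -0.15 in HC. The trimmed mean of log ratios (TMM) shifted them by -0.39, -0.24 and -0.43, and scaling to total reads by -0.56, -0.43 and -0.70, in the same order. Scaling to total reads here means RPM multiplied by the share of miRNA reads in all reads of the sequencing summary. The recovered counts were not themselves divided by total reads. Their denominator is smaller than the miRNA reads, so that division could give other folds. Under these 3 scalings the sum was at 2.17-fold, 1.83-fold and 1.63-fold in aging, and at 1.30-fold, 1.23-fold and 1.07-fold in SMK. In HC it was at 1.22-fold, 1.01-fold and, on the other side of 1, 0.836-fold. The position of HC relative to CTL was thus not fixed in direction.

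**Figure D2:**
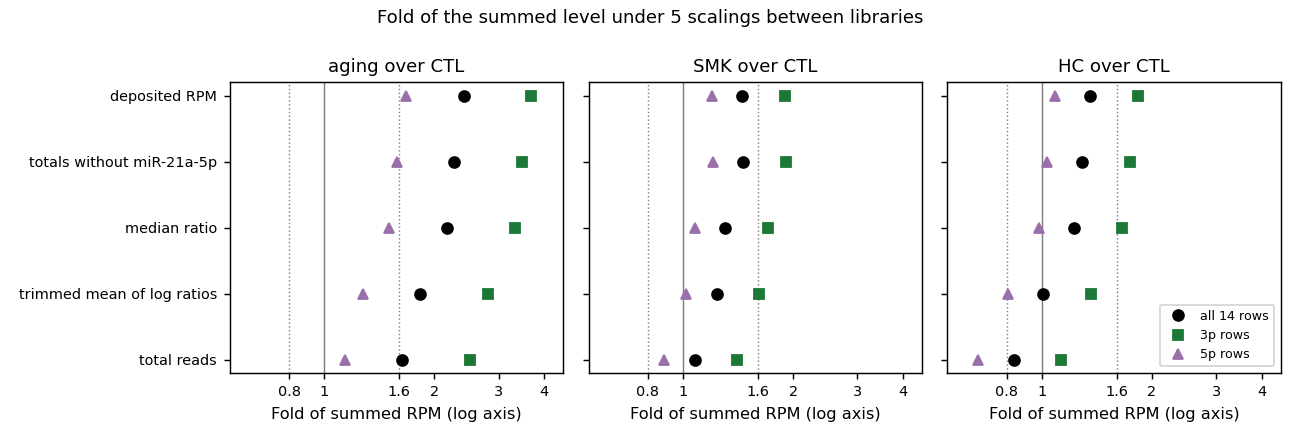
Fold of the summed RPM over CTL (log axis) for all 14 rows, the 6 rows of 3p arms and the 8 rows of 5p arms, under the deposited RPM and 4 other scalings between libraries; dotted lines mark 0.8 and 1.6 and the solid line marks 1. In aging the sum of all rows stays above 1.6 (lowest 1.63), whereas in HC it lies between 0.836 and 1.35.

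Ratios taken within a library do not move with the scaling. The 8 members with a mean of at least 10 RPM had means between 13.5 and 78.3 RPM, and 144 other miRs of the table lay in that range (miRs of equal level). Relative to the sum of these 144, the cluster was 1.88 times as high in aging as in CTL (1.68 to 2.11, Wald interval on counts). All 14 rows were taken for the cluster here, so that 6 of them lay below the range of the 144. The same ratio was 1.16 (1.03 to 1.32) in SMK and 0.877 (0.757 to 1.02) in HC. The sum of the miRs of equal level thus moved less than the cluster in aging and slightly less in SMK, and in HC the interval of the ratio included 1. Single miRs of equal level spread widely, with folds between 0.0107 and 13 in aging. Of the 144, 59 were above 1.6-fold and 31 below 0.8-fold in aging, and 52 and 15 in SMK. Of the 8 more abundant members, 7 had aging as their highest library, against 29.9% of the miRs of equal level, and 6 had CTL as their lowest, against 52.1%.

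The most abundant member was miR-669a-3p/miR-669o-3p, and miR-669a is known in the mouse for restraining MyoD in cardiac progenitors. It had 139.6 RPM in aging, 65.3 RPM in SMK, 72.2 RPM in HC and 36.2 RPM in CTL, or 219, 109, 75 and 92 counts. CTL was the lowest and aging the highest, the only case of a member above the study's minimum of 100 RPM. The fold was 3.86 (3.01 to 4.97) in aging, 1.80 (1.35 to 2.41) in SMK and 1.99 (1.45 to 2.74) in HC. In aging it ranked 128 of the 568 miRs by abundance, against 181 in CTL.

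MiR-669c-5p was the most abundant member in CTL and is made from a single hairpin (chr2:10509296-10509404). It had 82.2 RPM in aging, 61.7 RPM in SMK, 59.7 RPM in HC and 48.0 RPM in CTL. SMK and HC lay next to each other between aging and CTL. The fold was 1.71 (1.33 to 2.21) in aging, 1.28 (0.979 to 1.68) in SMK and 1.24 (0.901 to 1.70) in HC, and only the interval of aging left out 1. Scaled by the trimmed mean, its fold in aging was 1.30, and scaled to total reads it was 1.16, so this row was past 1.6 only with the deposited RPM and with totals that leave out miR-21a-5p.

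The other rows of miR-669 were close to the limit of detection. MiR-669a-3-3p, from a single copy of the miR-669a hairpins, had 6.37 RPM in aging, 2.99 RPM in SMK, 0.962 RPM in HC and 1.57 RPM in CTL, which is 10, 5, 1 and 4 counts. MiR-669b-5p went the other way and had 1.91 RPM in aging, 2.99 RPM in SMK, 2.89 RPM in HC and 5.11 RPM in CTL (3, 5, 3 and 13 counts). Its fold of 0.374 in aging had an interval from 0.0683 to 1.36 and was not distinguishable from 1. Summed, the 4 rows of miR-669 were at 2.53-fold (2.14 to 2.999) in aging, 1.46-fold (1.21 to 1.77) in SMK and 1.49-fold (1.20 to 1.85) in HC.

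The miR-466 rows had the largest summed folds of the numbers with more than 1 row. Their 5 rows summed to 155.5 RPM in aging, 95.2 RPM in SMK, 86.6 RPM in HC and 41.7 RPM in CTL. The fold was 3.73 (2.96 to 4.73) in aging, 2.28 (1.77 to 2.95) in SMK and 2.08 (1.55 to 2.78) in HC. All 5 rows were above CTL in each CRF library by the deposited RPM. The sum stayed above 1-fold under every scaling tried, with 1.28-fold the lowest value, in HC with total reads.

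MiR-466a-3p/miR-466e-3p had 65.0 RPM in aging, 47.3 RPM in SMK, 29.8 RPM in HC and 19.3 RPM in CTL (102, 79, 31 and 49 counts). The 4 libraries were well spread in this row, with CTL at the low end. The fold was 3.37 (2.38 to 4.84) in aging, 2.45 (1.70 to 3.58) in SMK and 1.55 (0.954 to 2.48) in HC.

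MiR-466b-3p/miR-466c-3p/miR-466p-3p had 30.6 RPM in aging, 10.2 RPM in SMK, 19.2 RPM in HC and 7.48 RPM in CTL (48, 17, 20 and 19 counts). Here HC stood above SMK, although the ratio of SMK to HC, 0.529, had an interval from 0.260 to 1.06. The fold was 4.09 (2.36 to 7.37) in aging, 1.36 (0.665 to 2.77) in SMK and 2.58 (1.30 to 5.10) in HC. MiR-466d-3p had 23.6 RPM in aging, 12.6 RPM in SMK, 10.6 RPM in HC and 7.08 RPM in CTL (37, 21, 11 and 18 counts). Its fold was 3.33 (1.85 to 6.21) in aging, and the intervals in SMK (0.901 to 3.53) and HC (0.638 to 3.34) included 1.

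MiR-466i-5p, from chromosome 13, had the largest fold of the 14 rows in each comparison. It had 30.6 RPM in aging, 19.2 RPM in SMK, 16.4 RPM in HC and 4.33 RPM in CTL, or 48, 32, 17 and 11 counts. CTL was far below the other 3 libraries. The fold was 7.07 (3.62 to 15.1) in aging, 4.43 (2.17 to 9.74) in SMK and 3.78 (1.67 to 8.93) in HC. Since CTL had only 11 counts, the intervals are wide. Without this row, left out after its values were seen, the cluster sum was at 2.31-fold in aging, 1.39-fold in SMK and 1.30-fold in HC. MiR-466h-5p, studied in cultured rodent cells for promoting apoptosis, had 5.74 RPM in aging, 5.99 RPM in SMK, 10.6 RPM in HC and 3.54 RPM in CTL (9, 10, 11 and 9 counts).

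The miR-467 rows had the smallest summed folds of the numbers with more than 1 row, and in SMK and HC the intervals of their sum included 1. Their 4 rows, all 5p arms, summed to 99.4 RPM in aging, 67.7 RPM in SMK, 52.9 RPM in HC and 70.4 RPM in CTL. The fold was 1.41 (1.13 to 1.76) in aging, 0.961 (0.752 to 1.22) in SMK and 0.752 (0.545 to 1.02) in HC. The direction in aging flipped with scaling to total reads (0.958-fold), whereas the values for SMK and HC were below 1 under every scaling tried.

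MiR-467e-5p had 52.3 RPM in aging, 25.1 RPM in SMK, 27.9 RPM in HC and 35.0 RPM in CTL (82, 42, 29 and 89 counts). Aging lay above CTL, and SMK and HC lay below it. The fold was 1.49 (1.09 to 2.04) in aging, 0.718 (0.485 to 1.05) in SMK and 0.797 (0.505 to 1.22) in HC. MiR-467c-5p, whose hairpin lies upstream in the same intron, had 31.9 RPM in aging, 33.5 RPM in SMK, 15.4 RPM in HC and 22.8 RPM in CTL (50, 56, 16 and 58 counts). In this row SMK was as high as aging, with a ratio of aging to SMK of 0.95 (0.636 to 1.42).

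The 2 abundant miR-467 rows therefore differed from each other in SMK. Their ratio, miR-467c-5p over miR-467e-5p, was 1.33 in SMK and 0.652 in CTL, which is 2.05 times as high (1.22 to 3.44). In aging it was 0.936 times the CTL ratio (0.577 to 1.52). MiR-467d-5p had 9.56 RPM in aging, 5.39 RPM in SMK, 5.77 RPM in HC and 5.90 RPM in CTL. MiR-467b-5p, described in mouse macrophages as a repressor of lipoprotein lipase, had 5.74 RPM in aging, 3.59 RPM in SMK, 3.85 RPM in HC and 6.69 RPM in CTL (9, 6, 4 and 17 counts). It was the only miR-467 row with CTL as its highest library, but all 3 intervals included 1.

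The single row of miR-297, miR-297a-3p/miR-297b-3p/miR-297c-3p, had 10.8 RPM in aging, 3.59 RPM in SMK, 3.85 RPM in HC and 3.15 RPM in CTL (17, 6, 4 and 8 counts). The fold over CTL was 3.44 (1.41 to 9.22) in aging, 1.14 (0.33 to 3.75) in SMK and 1.22 (0.27 to 4.57) in HC. Only the interval of aging left out 1. Ratios of aging to SMK and to HC were not taken for this row, so aging was set apart from CTL alone.

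**Figure D3:**
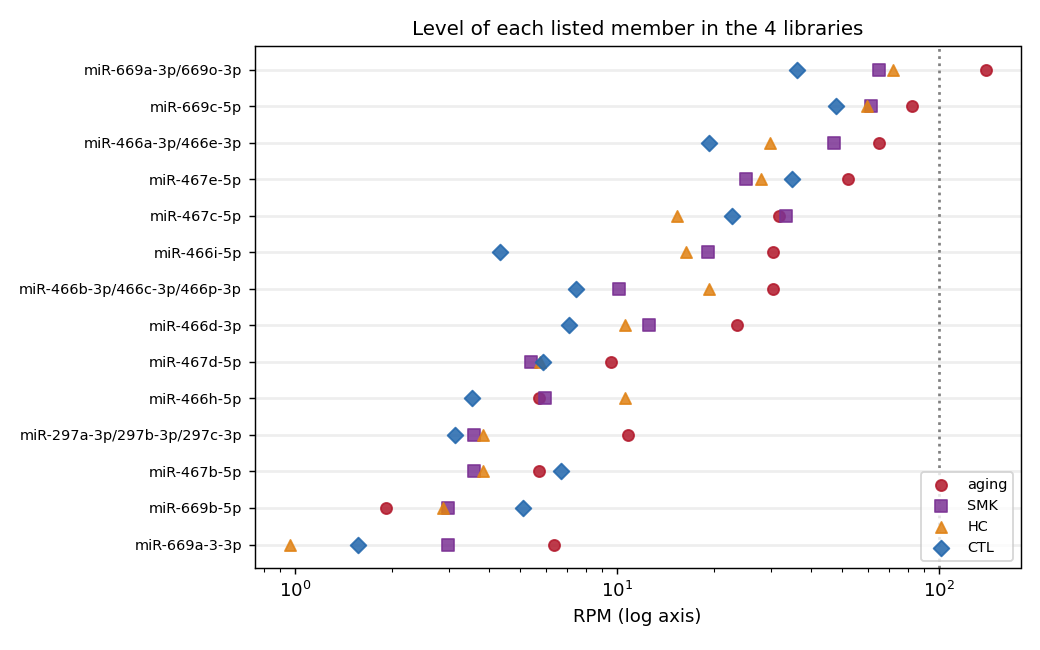
RPM of each of the 14 rows (log axis) in the aging, SMK, HC and CTL libraries, in order of mean level; the dotted line marks 100 RPM. CTL is the lowest point in 8 rows and aging the highest in 10, and a single value, miR-669a-3p/miR-669o-3p in aging at 139.6 RPM, lies above 100 RPM.

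The study took a miR below 0.8-fold as lower and above 1.6-fold as higher. These limits were applied to the 8 members with a mean of at least 10 RPM over the 4 libraries, which hold between 87.4% (CTL) and 91.9% (aging) of the member counts. In aging, 6 of the 8 were higher and none (0) was lower, and all 8 had folds above 1, between 1.40 and 7.07. Of all 340 miRs of the table with such a mean, 38.5% were higher and 22.9% lower in aging. The median log2 fold was 1.75 for the 8 members and 0.34 for the 340 miRs. The median of the other miRs of equal level was 0.44.

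In SMK, 4 of the 8 were higher and 1, miR-467e-5p, was lower. The background was 30.9% higher and 11.8% lower, and the median log2 fold was 0.69 for the members against 0.32 for all 340 miRs. In HC, 3 of the 8 were higher and 2, miR-467e-5p and miR-467c-5p, were lower. The share of higher members in HC was below the background of 41.8%, and 17.4% of all miRs were lower. The median log2 fold in HC was 0.61 for the members and 0.45 for all. In HC the share of members called was thus near that of the whole table.

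Fewer members were past a limit with their whole interval. This held for 5 of 8 in aging, all higher, against 24.4% of all miRs higher and 13.5% lower (37.9% in all). It held for 2 of 8 in SMK, both higher, miR-466a-3p/miR-466e-3p and miR-466i-5p, against 15.6% higher and 3.53% lower (19.1% in all). In HC it held for miR-466i-5p alone, against 25.6% higher and 7.94% lower (33.5% in all).

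Other rules moved the counts of members and of all miRs together. Counting higher and lower together, 6 of 8 were called in aging against 61.5% of all miRs, 5 of 8 in SMK against 42.6%, and 5 of 8 in HC against 59.1%. With no filter, 11 of the 14 members were called in aging, against 66.4% of all 568 miRs (41.5% higher, 24.8% lower). In SMK 9 of 14 were called, against 53% (32% higher, 21% lower), and in HC 9 of 14, against 66% (43.5% higher, 22.5% lower). With a mean of at least 3 RPM, 10 members were called in aging against a background of 65.3%, 8 in SMK against 51.4% and 8 in HC against 64.8%. The share of members called was nearest to the background in HC under each of these filters.

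With the study's minimum of 100 RPM in either library, 1 member was called in aging, where 59.7% of all such miRs were. No member (0) reached that minimum in SMK or HC, where 34.9% and 53.2% of such miRs were called. With limits of 0.5 and 2, 5 members were called in aging against 36.8% of all miRs, 2 in SMK against 20.9% and 2 in HC against 34.1%. Adding 1 RPM to each value gave 6, 5 and 4 members against 60.9%, 41.5% and 57.6%, and adding 10 RPM gave 5, 4 and 4 members against 52.1%, 31.8% and 49.4%.

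Scaling ended some calls and added a new lower call. With the median ratio 5, 4 and 5 members were called in aging, SMK and HC, against 61.2%, 43.5% and 59.4% of all miRs. With the trimmed mean it was 5, 3 and 4, against 65.3%, 44.7% and 64.1%, with totals that leave out miR-21a-5p 6, 5 and 5, against 62.6%, 42.4% and 58.2%, and with total reads 5, 3 and 4, against 67.9%, 51.5% and 69.4%. The call of miR-669c-5p in aging ended under the median ratio, the trimmed mean and total reads, and so did that of miR-466d-3p in SMK. In HC the call of miR-466b-3p/miR-466c-3p/miR-466p-3p ended under total reads (1.59-fold). The call of miR-669a-3p/miR-669o-3p ended under the trimmed mean and total reads in SMK and in HC, but not in aging, where its lowest fold was 2.62. With total reads, the split in HC was 1 higher and 3 lower, and in SMK 2 higher and 1 lower. The new lower call in HC was miR-669c-5p, at 0.767-fold.

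**Figure D4:**
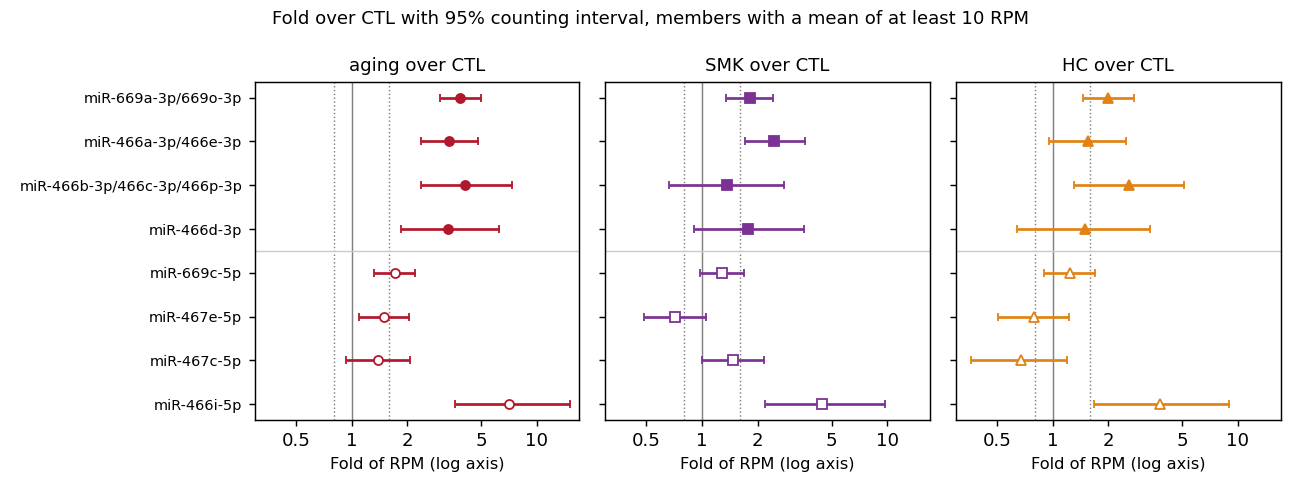
Fold over CTL (log axis) with its 95% counting interval for the 8 members with a mean of at least 10 RPM, in aging, SMK and HC; filled symbols are 3p arms, open symbols 5p arms, dotted lines mark 0.8 and 1.6. In aging all 4 rows of 3p arms lie between 3.33 and 4.09, and 3 of the 4 rows of 5p arms lie between 1.40 and 1.71.

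The rows divided by arm. The 6 rows of 3p arms summed to 276.0 RPM in aging, 141.9 RPM in SMK, 136.7 RPM in HC and 74.8 RPM in CTL. Their fold was 3.69 (3.11 to 4.40) in aging, 1.90 (1.56 to 2.31) in SMK and 1.83 (1.46 to 2.28) in HC. In aging the 6 folds were alike, from 3.33 to 4.09, although the rows differed in CTL level from 1.57 to 36.2 RPM. MiR-669a-3-3p and the miR-297 row rested on 4 and 8 counts in CTL, with intervals of 1.17 to 17.7 and 1.41 to 9.22. For these rows the likeness was not resolved by counting. The sum of 3p arms stayed above CTL under every scaling tried, with 1.13-fold in HC under total reads as the lowest value.

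The 8 rows of 5p arms moved less. They summed to 219.9 RPM in aging, 157.5 RPM in SMK, 142.4 RPM in HC and 131.4 RPM in CTL. The fold was 1.67 (1.44 to 1.95) in aging, 1.20 (1.02 to 1.41) in SMK and 1.08 (0.887 to 1.32) in HC. The direction of the 5p sum flipped with scaling to total reads in SMK (0.887-fold), and in HC with total reads (0.669-fold), the trimmed mean (0.807-fold) and the median ratio (0.978-fold). Among the 5p rows, miR-466i-5p stood apart with the highest fold in each comparison.

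As a share of member counts, which does not depend on scaling, 3p arms made up 55.7% in aging (exact Clopper-Pearson 95% interval 52.1 to 59.2), 47.4% in SMK (42.9 to 51.9), 49.0% in HC (43.1 to 54.9) and 36.3% in CTL (32.1 to 40.5). None of the 3 CRF intervals overlapped that of CTL, and those of SMK and HC overlapped each other. The ratio of 3p to 5p counts was 2.21 times that of CTL in aging (1.76 to 2.77), 1.58 times in SMK (1.23 to 2.03) and 1.69 times in HC (1.26 to 2.26). Without the most abundant row of each arm, it was 2.14 (1.58 to 2.91), 1.73 (1.24 to 2.42) and 1.69 (1.13 to 2.51) times that of CTL. The 2 arms were measured from different hairpins, and no hairpin has both arms in the table by a name of its own, so the ratio says nothing of arm use within a hairpin.

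**Figure D5:**
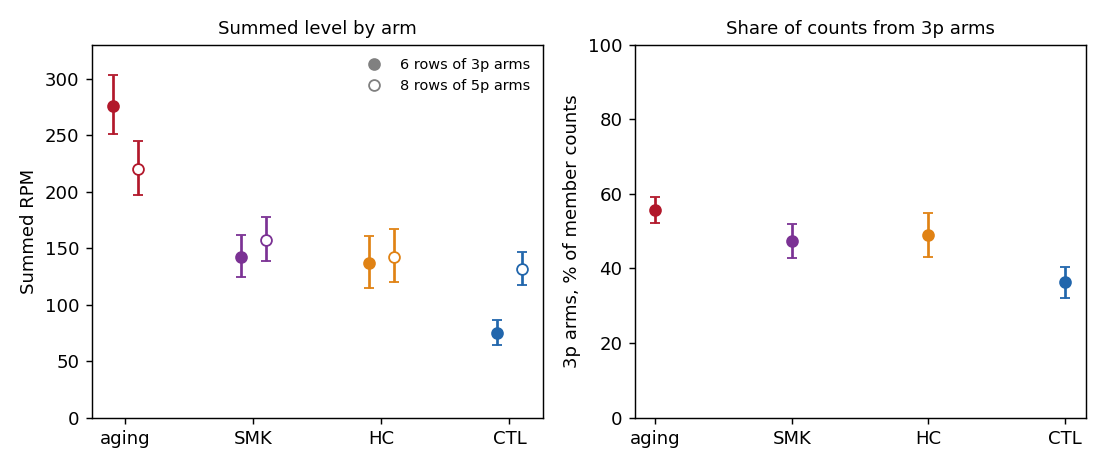
Left, summed RPM of the 6 rows of 3p arms (filled) and the 8 rows of 5p arms (open) in each library with exact 95% Poisson intervals; right, share of member counts from 3p arms with exact 95% binomial intervals. The 3p share is 55.7% in aging, 47.4% in SMK, 49.0% in HC and 36.3% in CTL.

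The division by arm was also seen within miR-669 but not within miR-466. Among miR-669 rows the ratio of 3p to 5p counts was 2.44 times that of CTL in aging (1.74 to 3.42), 1.48 times in SMK (1.02 to 2.15) and 1.64 times in HC (1.08 to 2.51). Among miR-466 rows it was 0.763 times that of CTL in aging (0.432 to 1.35), 0.648 times in SMK (0.355 to 1.18) and 0.515 times in HC (0.266 to 0.997). Of their 2 rows of 5p arms, miR-466i-5p had the largest fold of all members in each comparison. The other, miR-466h-5p, was also high in HC, at 2.99-fold (1.13 to 8.16). Within miR-669 each arm has 2 rows, 1 of them rare. The ratio there is carried by miR-669a-3p/miR-669o-3p against miR-669c-5p, with 219 against 129 counts in aging. The first is a joint name for 12 hairpins and the second comes from a single hairpin. MiR-467 rows are all 5p arms and the miR-297 row is a 3p arm. Number, joint name and arm can thus not be fully told apart.

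Other miRs of the table gave a smaller division in the same direction. Among the miRs of equal level, the median fold in aging was 1.40 for 60 rows of 3p arms and 1.11 for 59 rows of 5p arms. It was 1.48 and 1.24 in SMK, and 1.62 and 1.38 in HC, for 3p and 5p arms in this order. All 6 rows of 3p arms and all 8 rows of 5p arms of the cluster, the rarer ones included, were then set against these. Relative to those other 3p arms, the 3p rows of the cluster were 2.92 times as high in aging as in CTL (2.44 to 3.48), 1.53 times in SMK (1.26 to 1.87) and 1.23 times in HC (0.984 to 1.54). Relative to other 5p arms, the 5p rows were at 1.48 (1.27 to 1.73) in aging, 1.05 (0.884 to 1.24) in SMK and 0.812 (0.665 to 0.992) in HC.

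The make-up by number changed in the same way in the 3 CRF libraries. MiR-466 rows gave 31.4% of member counts in aging (28.1 to 34.8), 31.8% in SMK (27.7 to 36.1), 31.0% in HC (25.8 to 36.7) and 20.2% in CTL (16.9 to 23.9). MiR-467 rows gave 20.1% in aging (17.3 to 23.0), 22.6% in SMK (19.0 to 26.5), 19.0% in HC (14.6 to 24.0) and 34.2% in CTL (30.1 to 38.4). The share of miR-669 rows lay between 44.1% (CTL) and 48.6% (HC), and the intervals of all 4 libraries overlapped. The ratio of miR-466 to miR-467 counts was 2.64 times that of CTL in aging (1.93 to 3.61), 2.38 times in SMK (1.69 to 3.34) and 2.76 times in HC (1.83 to 4.17). The 3 ratios share the CTL library.

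The folds were also set against place along the intron. Among the 9 rows with a single hairpin in Sfmbt2, the fold in aging was 0.374 for miR-669b-5p at 97.4 kb from the start of Sfmbt2, 1.40 for miR-467c-5p at 103.5 kb and 4.05 for miR-669a-3-3p at 104.0 kb. It was 0.858 for miR-467b-5p at 110.8 kb, 1.49 for miR-467e-5p at 135.3 kb and 1.62 for miR-467d-5p at 137.2 kb. Further on, it was 1.71 for miR-669c-5p at 138.9 kb, 3.33 for miR-466d-3p at 141.5 kb and 1.62 for miR-466h-5p at 144.5 kb. MiR-467c-5p and miR-669a-3-3p, from neighbouring hairpins, had folds of 1.40 (0.937 to 2.07) and 4.05 (1.17 to 17.7), with 4 counts of the second in CTL.

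In HC the folds of the same 9 rows were 0.565 for miR-669b-5p, 0.675 for miR-467c-5p, 0.612 for miR-669a-3-3p, 0.576 for miR-467b-5p, 0.797 for miR-467e-5p, 0.979 for miR-467d-5p, 1.24 for miR-669c-5p, 1.49 for miR-466d-3p and 2.99 for miR-466h-5p, in order of position. They were thus higher toward the far end of the cluster, although only the interval of miR-466h-5p (1.13 to 8.16) left out 1. Over the 9 rows, Spearman's rho between position and fold was 0.93 for HC, 0.54 for aging and 0.35 for SMK. Over 8 rows, with miR-669a-3-3p left out after its values were seen, rho was 0.98 for HC, 0.87 for aging and 0.69 for SMK. That row had the highest fold of the 9 in aging and in SMK, and no other row was left out in turn. The values over 8 rows therefore add nothing to those over 9. These values describe rows that share the CTL library and its few counts. The 2 miR-466 rows lie at the far end and the miR-467 rows before them, so position and number cannot be fully told apart. Within miR-669, in order of position, the folds were 0.565, 0.612 and 1.24 in HC, and 0.374, 4.05 and 1.71 in aging. Within miR-467 they were 0.675, 0.576, 0.797 and 0.979 in HC, and 1.40, 0.858, 1.49 and 1.62 in aging. All these intervals in HC included 1.

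The Dlk1-Dio3 region on chromosome 12 holds another large imprinted miR cluster of the mouse. Its 8 rows in the table summed to 102.6 RPM in aging, 115.0 RPM in SMK, 141.5 RPM in HC and 72.4 RPM in CTL. The sum was highest in HC, with a ratio of aging to HC of 0.725 (0.576 to 0.913), whereas the same ratio was 1.78 (1.55 to 2.04) for the Sfmbt2 cluster. The folds of its rows in aging ranged between 0.0386 and 3.56, with 4 above and 4 below 1. In HC 3 of the 8 rows were above 1.6 and 4 below 0.8, against 43.5% and 22.5% of all 568 miRs. With 5 rows below 1 and a median log2 fold of -0.41, the HC sum was carried by a minority of the rows.

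Markers of other cell types moved between the same libraries. Stromal miRs (9 rows for 10 names of the list, among them miR-143 and miR-199a) summed to 12511 RPM in aging, 31461 RPM in SMK, 23146 RPM in HC and 36546 RPM in CTL. Of the 9 stromal rows, 8 were below CTL in aging and 1 was above. In SMK 5 were above and 4 below, with a median log2 fold of 0.21, although the sum was lower. In HC 3 were above and 6 below. Both arms of the endothelial miR-126a summed to 13795 RPM in aging, 33683 RPM in SMK, 18424 RPM in HC and 29076 RPM in CTL. Myeloid miRs (6 of 6, such as miR-223-3p and miR-142a-3p) summed to 77107 RPM in aging, 67372 RPM in SMK, 70582 RPM in HC and 60386 RPM in CTL. The sum is carried by the abundant rows, since in aging 3 of the 6 myeloid rows were below 1, with folds between 0.162 and 2.40 and a median log2 fold of 0.12. Lymphoid miR-150 (1 of 2 names) was between 35.6 and 43.1 RPM, erythroid miRs (2 of 3) between 3.19 and 61.6 RPM and epithelial miRs (5 of 5) between 193.5 and 229.4 RPM. No marker row was at 0. The order of the myeloid sum was aging, HC, SMK, CTL, and that of the Sfmbt2 cluster aging, SMK, HC, CTL, and the part of cell type make-up in the result was not tested.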

How the data were processed

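The deposited values are RPM of 568 miRs in 4 libraries, computed by the authors from reads mapped with bowtie, first to miRBase version 21, and normalized by library size. The submitters' processing notes name bcl2fastq 2.20, TopHat2 2.0.10, HTSeq 0.5.4 and mm10 instead, and whether reads of 1 molecular identifier were merged is not given in the sources used here. Every RPM value was a whole multiple of the smallest in its library (100% within 0.001 count), worth 0.637 RPM in aging, 0.599 in SMK, 0.962 in HC and 0.393 in CTL, and counts were recovered from these steps. With 1 library per condition no test was run, also not on recovered counts.

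Intervals of folds are conditional binomial (Clopper-Pearson), those of ratios of ratios Wald intervals on log counts, all at 95%. Members, lists and alternatives were chosen with earlier results of these data known. By rule, members with a mean of at least 10 RPM, the 3 highest and lowest folds among them included, are named with all values; the 6 rarer ones, outside that rule, are named too, after their values were seen, so that all 14 are shown. Alternatives were other filters, limits, pseudocounts (1 and 10 RPM), members, scalings and SMK as reference. Total reads and miRNA reads were read from the supplementary summary of the paper. Scaling to total reads multiplied each RPM by the ratio of miRNA reads to total reads of its library. Ratios to miRs of equal level, of arms and of numbers were added after the values were seen. Hairpins were matched by symbol or synonym (RefSeq GRCm38.p6). On data simulated with counting error alone, intervals covered the simulated fold for 96.5% (aging), 95.6% (SMK) and 97.5% (HC) of 565 miRs. Python 3.11.15, numpy 2.4.6, scipy 1.17.1, pandas 2.3.3, matplotlib 3.10.9, R 4.3.3 and edgeR 4.0.16 (trimmed mean) were used.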

Additional observations from a re-analysis of the deposited data

How the results depend on the processing

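Depth limits the rare rows: 9 to 11 of the 14 rows had 10 counts or more in a library, and no value has a replicate. No paired analysis was possible because each condition has 1 library. Grouping by seed was not made, as 0 of 14 rows matched a mature sequence, and no joint name spans 2 numbers.

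The summed fold of 2.41 in aging was 1.83 under the trimmed mean, 1.63 under total reads, 2.10 without the most abundant member, 1.78 without joint names and 1.66 with SMK as the reference. In SMK it was 1.23 with a trimmed mean, 1.07 with total reads and 1.24 without joint names. In HC it was 1.01 with a trimmed mean, 0.836 with total reads, 1.10 without joint names and 0.932 with SMK as the reference. These scalings lower all folds alike by construction, and the joint names are all 3p arms. The sums moved within the main interval under the median ratio, totals without miR-21a-5p, rows with a hairpin or every hairpin in Sfmbt2, and, added after the data were seen, without miR-466i-5p and without the 2 most abundant rows.

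Of the 6 (aging), 5 (SMK) and 5 (HC) members past the limits, the counts became 11, 9 and 9 with no filter on low values and 10, 8 and 8 with a mean of at least 3 RPM, as more rows were tested. They became 1, 0 and 0 with 100 RPM in either library. With whole intervals past a limit they were 2 in SMK and 1 in HC, with limits of 0.5 and 2 they were 2 in SMK and 2 in HC, and with a trimmed mean or total reads 3 in SMK. Other alternatives kept the counts within 1.5 times. Without the most abundant 5p and 3p row, 5p arms gave 50.2% of counts in aging, against 44.3% with them, and 68.4% in CTL, against 63.7%. No member fold called with the deposited RPM changed direction under another scaling tried. The fold of miR-669c-5p in HC, not called with the deposited RPM, went from 1.24 to 0.767 with total reads.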
